A study of Mus musculus with 8 samples.

Results

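The signals of 42 DNA replication genes were compared between mouse embryos of 2 kinds of father. The genes encode the proteins that mark replication origins, open the double helix and copy, join and supply the new DNA. They were taken as a fixed list of gene symbols, and a probe was included if its RefSeq accession, without the version, belonged to a listed gene. This gave all 42 of the listed genes, out of 20660 genes matched in the same way, and 48 of the 55681 probes on the array. Of these, 47 passed the filter on dim probes, as did 29718 probes in all, and each of the 42 genes kept at least 1 tested probe. *Orc3*, *Orc4*, *Cdc6*, *Cdc7*, *Pole* and *Rfc4* had 2 probes each, which measure the same gene and are not independent of each other. The only probe left out was the dimmer of the 2 for *Pole*.

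RNA came from 8 whole embryos at embryonic day 8.5 (E8.5), 1 embryo to an array and none pooled. Each of the 8 embryos carried 1 copy of Eedl7Rn5-1989SB, a hypomorphic allele of *Eed*, on a C57bl6/129 background, and each had a wild-type mother. *Eed* encodes a core part of Polycomb repressive complex PRC2, which methylates histone H3 at lysine 27, and the allele lowers that function without removing it. The father was homozygous for the allele in 4 embryos (HOM father) and heterozygous in the other 4 (HET father). Both groups held 2 female and 2 male embryos. The comparison asks whether low EED function in the father's germline changes the expression of genes in offspring that carry the same *Eed* genotype as their controls. The study used fewer sires than embryos in each group, so that some embryos of a group shared a father, and its sires of the 2 genotypes were brothers. The labels do not say which embryo came from which sire, and the p-values below treat the 4 embryos of a group as independent. All HOM father arrays lay on 1 slide and all HET father arrays on another, and slide and father cannot be told apart.

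Replication starts with licensing. The origin recognition complex (ORC) marks an origin, and CDC6 and CDT1 then load the ring of MCM2 to MCM7 onto the DNA, where it waits as an inactive helicase. The kinase CDC7 with other factors recruits CDC45 and the GINS complex to wake the helicase, primase and the polymerases copy the strands behind it, and the clamp PCNA, loaded by replication factor C (RFC), keeps the polymerases on the template. Many of these genes are transcribed as cells pass from G1 into S phase, under E2F transcription factors, and they are well expressed in rapidly dividing tissue such as the early post-implantation embryo.

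Between 51.9% and 60.8% of spots were well above background, and no spot was saturated. Before normalisation the median signal was between 91.0 and 103 on HOM father arrays and between 70.5 and 81.2 on HET father arrays. These medians did not overlap between the slides. The 75th percentiles did, at 1359 to 1633 on HOM father arrays and 1334 to 1447 on HET father arrays. All 47 tested replication probes were well above background on all 8 arrays. Signals are given on the log2 scale after subtraction of each array's 75th percentile, so that a normalised signal of 0 is that percentile, and a difference of 1 is 2-fold. On this scale 38 of the 47 replication probes had a mean above 0. Markers of the embryo proper were measured as the label says, with all 11 listed genes (*T*, *Tbx6*, *Sox2*, *Nkx2-5* and others) well above background on all arrays. The whole embryos also carried signal of primitive red cells and of yolk sac endoderm, with 8 of 8 and 9 of 9 listed genes above background throughout. Of the trophoblast and decidua lists, 5 of 7 and 5 of 6 genes were above background on all arrays. No array had the spongiotrophoblast marker *Tpbpa* well above background.

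No replication gene changed between the groups by the study's limits, an adjusted p below 0.01 and at least 2-fold. Across the array 1.27% of tested probes (376, with 368 higher and 0.0269%, or 8, lower) passed these limits in the same limma fit, with Benjamini-Hochberg adjustment over all 29718 tested probes. Smaller differences were present. At an adjusted p below 0.05 with no limit on size, 1 replication probe was higher in embryos of HOM fathers (*Gins3*), beside a background of 12.3% of all tested probes, and 6 were lower (both *Rfc4* probes, *Lig1*, *Rfc2*, *Mcm7* and *Rrm2*), beside a background of 8.69%. In the fit, 10 replication probes had an unadjusted p below 0.05, as did 34.8% of all tested probes. When each array was scaled to its median in place of its 75th percentile, the calls over all probes turned from 3660 higher and 2583 lower to 2338 higher and 10351 lower, and those of the replication probes to 0 higher and 25 lower. With it the median change over all tested probes went from -0.02 to -0.21.

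The calls were fewer when 1 array was left out. Without HOM father replicate 1, 3 or 4, or without HET father replicate 1 or 3, 2 replication probes were lower at an adjusted p below 0.05 (limma). Without HET father replicate 2 or 4 there were 3, and without HOM father replicate 2 there were 5. There was 1 higher call without HOM father replicate 1 or without HET father replicate 3, and there were 0 without any other array. In 1 gene, *Rfc4*, the change of the probe A_55_P2159801 kept its direction and an adjusted p below 0.05 under all 18 alternatives, with adjusted p values between 0.0042 and 0.0356.

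The changes of the replication probes by role are shown in the plot of all 47 probes with their 95% intervals. For 46 of the 47 probes the interval lay within 2-fold in both directions, and for 44 it lay within 1.41-fold. *Prim2* was the exception at 2-fold, joined at 1.41-fold by 1 probe each of *Cdc7* and *Rfc4*. A change of 2-fold or more was therefore outside the interval for each replication gene but *Prim2*, taken 1 probe at a time and not as a joint statement.

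**Figure D1:**
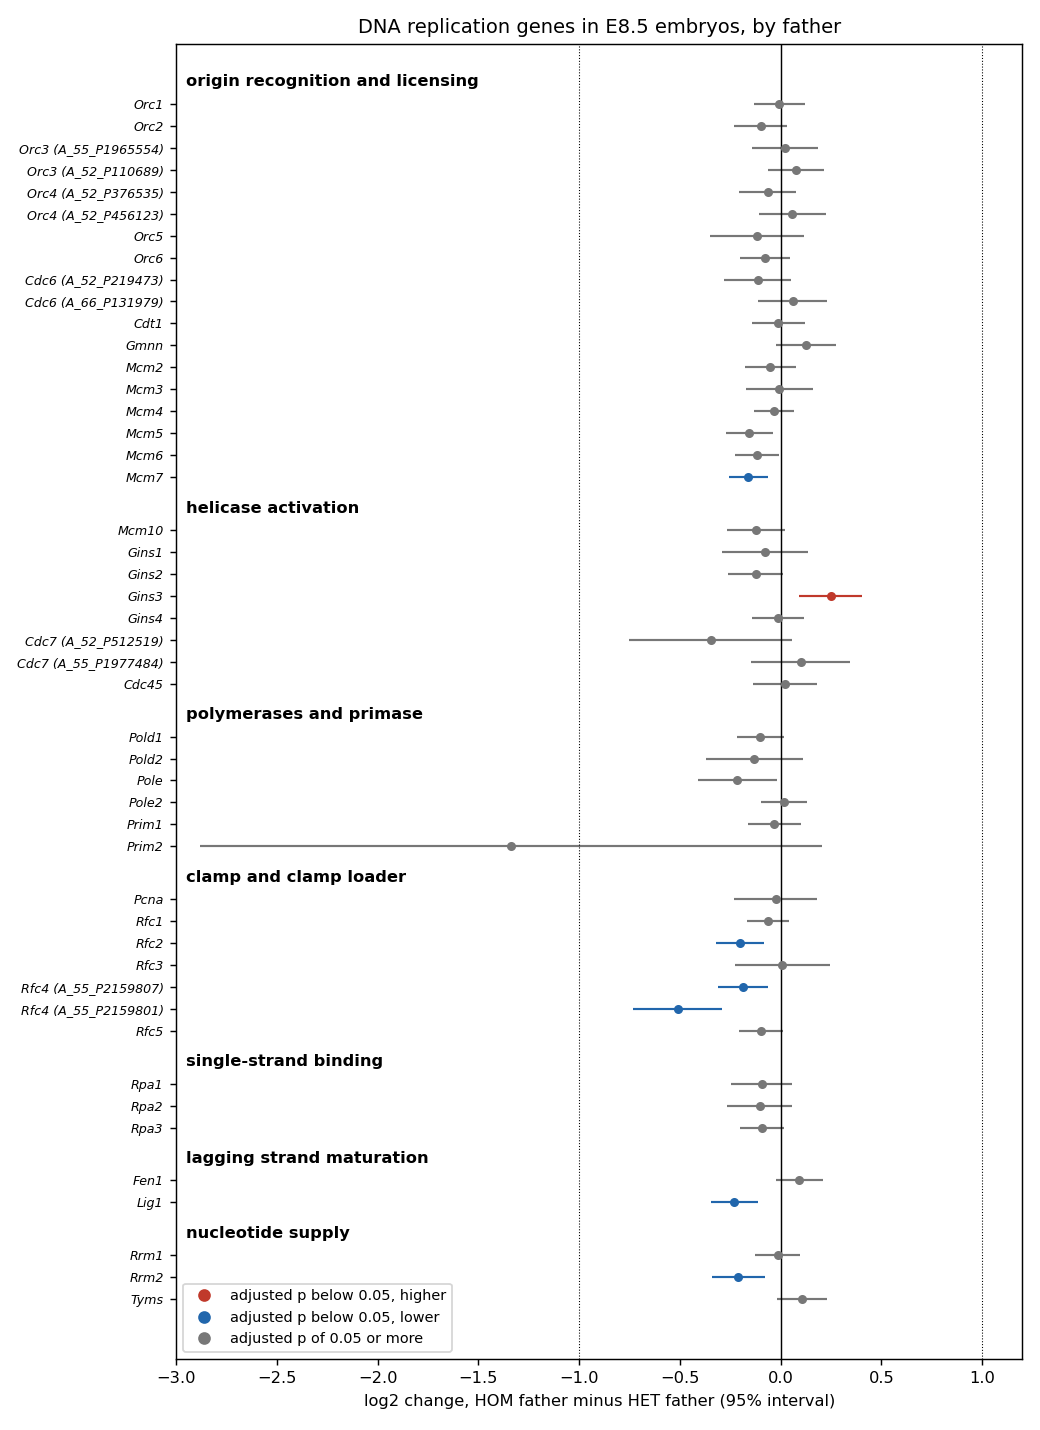
Log2 change of each of the 47 tested replication probes, HOM father minus HET father (n = 4 embryos each), with points for the fitted change and bars for its 95% interval, grouped by role. Dotted lines mark 2-fold. Only Prim2 has an interval that crosses a dotted line, and the called probes (red higher, blue lower) change by between -0.51 and 0.25.

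Over the 47 probes the median change was -0.08, with 35 fitted changes below 0 and 12 above. The median over all tested probes was -0.02. Most replication probes are bright, and over the 13271 tested probes with a mean signal above 0 (a set chosen after the values were seen) the median change was -0.07. In that bright set 15.0% of probes were lower and 6.34% higher at an adjusted p below 0.05. All 6 lower replication probes were among the 38 that met the same limit on brightness. Under quantile normalisation the median of the replication probes was -0.01 and that of all tested probes -0.03, with the replication probes no longer below the rest.

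**Figure D2:**
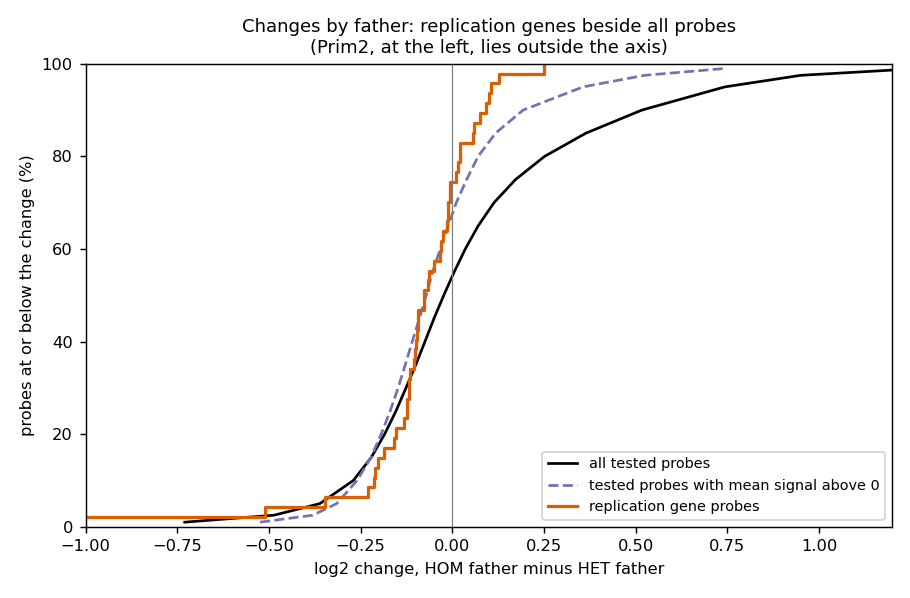
Cumulative share of probes (%) at or below a given log2 change, HOM father minus HET father, for the 47 replication probes (orange), all 29718 tested probes (black) and the 13271 tested probes with a mean signal above 0 (purple, dashed). The orange and purple lines have medians of -0.08 and -0.07, and the black line has a median of -0.02.

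The level of the list was then compared array by array. With each probe centred on its mean over the 8 arrays and *Prim2* left out, the median of the other 46 probes was -0.07, 0.02, -0.04 and -0.05 in HOM father replicates 1 to 4. It was 0.03, 0.01, 0.07 and 0.01 in HET father replicates 1 to 4. HOM father replicate 2 lay among the HET father arrays, and the groups overlapped. The bright probes as a whole gave -0.05, 0.00, -0.05 and -0.03 against 0.04, 0.01, 0.06 and 0.03, with the same array of the HOM group nearest to the other group.

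**Figure D3:**
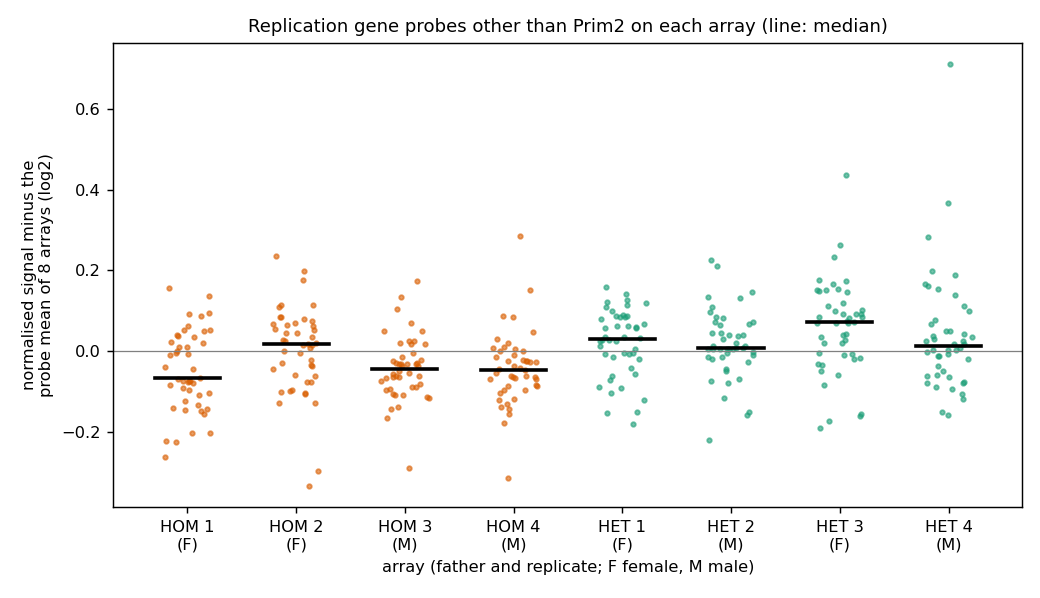
Normalised signal of the 46 tested replication probes other than Prim2, each minus its own mean over the 8 arrays (log2), on every array (father, replicate and sex). Points are probes and lines are medians. The medians lie between -0.07 and 0.02 on HOM father arrays and between 0.01 and 0.07 on HET father arrays.

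Genes of origin recognition and licensing (15 genes, 18 probes) gave 1 lower call and no higher one, with a median change of -0.04. The call was *Mcm7*, 1 of the 6 subunits of the MCM ring. Its signals were 5.88, 5.89, 5.87 and 5.92 in embryos of HOM fathers and 6.03, 6.02, 6.07 and 6.08 in embryos of HET fathers. Every HET father embryo was above every HOM father embryo, by a narrow margin and the spread within each group was small. The change was -0.16 ± 0.04 (SE, n = 4 and 4), or 1.12-fold lower, with an adjusted p of 0.0312 in limma. The call was lost in 10 of 18 alternatives. The change was -0.10 (adjusted p = 0.143) with quantile normalisation and -0.35 with median scaling, and the replicate block gave an adjusted p of 0.117. The other ring subunits *Mcm5* (-0.15, adjusted p = 0.0641) and *Mcm6* (-0.12, adjusted p = 0.113) did not pass the test, although their groups did not overlap either.

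*Mcm2*, *Mcm3* and *Mcm4* had changes nearer to 0, at -0.05 for *Mcm2*, -0.01 for *Mcm3* and -0.03 for *Mcm4*. The ORC genes lay between -0.12 (*Orc5*) and 0.08 (1 of the *Orc3* probes), and none passed the test. *Orc1*, the large ATP-binding subunit whose level in many cells follows the cell cycle, had means of -0.22 in both groups. *Orc4* and *Cdc6* each had 1 probe fitted above 0 and 1 below, with all 4 changes between -0.11 and 0.06 and no adjusted p below 0.303. The loading factor *Cdt1* stood at -0.01, and its inhibitor *Gmnn* (geminin) at 0.13 with an adjusted p of 0.201. In all, 10 tested replication probes had groups that did not overlap, 9 with HOM father embryos below and 1 with them above, against 13.0% and 14.1% of all tested probes.

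E2F motifs were found in a larger share of the promoters of these genes than of promoters at large, a description that was not tested. RefSeq promoter windows (GRCm38.p6, from 250 bases before a transcription start to 50 after it) were matched for 34 of the 42 genes. A motif was counted if TTTCCCGC, TTTGGCGC, TTTGCCGC or TTTCGCGC occurred on either strand, and overlapping matches were kept. Such a match was present in the windows of 13 genes (38.2%), namely *Orc1*, *Orc3*, *Cdc6*, *Cdt1*, *Mcm3*, *Mcm5*, *Mcm6*, *Mcm7*, *Gins3*, *Pold1*, *Pole2*, *Rfc3* and *Lig1*. The share was 2.60% of all 27025 genes with a window and 3.29% of the 17492 protein-coding ones. The CCAAT motif bound by NF-Y was found in 22 of the 34 genes (64.7%), against 42.3% of coding genes. The cell cycle homology region (CHR, TTTGAA or TTCGAA) was found in 8 (23.5%), against 20.2%. A match is a string of letters and no evidence of binding.

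The stretches around upstream matches are printed for genes whose groups did not overlap. Such groups were found for 13.0% (HOM father below) and 14.1% (HOM father above) of all tested probes, and *Mcm5* and *Mcm6* did not pass the test. The groups of *Rfc4* and *Rfc2* did not overlap either. The *Rfc4* window held none of these motifs and *Rfc2* had no matched window, so neither is printed. The E2F matches of *Lig1* and *Pold1* lay downstream of the start and are not printed. A second *Mcm7* match, TTTCGCGC at position 17 after the start, is not printed either. Capitals mark the E2F matches in *Mcm5*, *Mcm6*, *Mcm7* and *Gins3*, and the CCAAT box in *Rrm2*, whose window held no E2F match. Each is written 5′ to 3′ along the gene's strand and ends before the transcription start. In *Mcm5* and at the first site in *Mcm6*, matches on the 2 strands overlap by 4 bases.
Mcm5: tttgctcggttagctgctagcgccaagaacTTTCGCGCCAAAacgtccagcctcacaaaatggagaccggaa
Mcm6: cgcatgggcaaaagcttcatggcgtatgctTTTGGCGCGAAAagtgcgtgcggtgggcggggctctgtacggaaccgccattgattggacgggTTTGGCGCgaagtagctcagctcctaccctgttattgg
Mcm7: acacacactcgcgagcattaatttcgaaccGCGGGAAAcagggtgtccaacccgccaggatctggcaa
Gins3: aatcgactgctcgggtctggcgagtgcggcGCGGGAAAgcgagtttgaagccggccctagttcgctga
Rrm2: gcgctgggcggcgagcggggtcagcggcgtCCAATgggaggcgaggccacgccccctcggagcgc
The *Mcm5* stretch is chr8:75109326-75109397 on the plus strand and the *Mcm6* stretch chr1:128359715-128359845 on the minus strand. The *Mcm7* stretch is chr5:138172011-138172078 on the minus strand, the *Gins3* stretch chr8:95633488-95633555 on the plus strand and the *Rrm2* stretch chr12:24708174-24708238 on the plus strand. The upstream matches of *Gins3*, which was higher, and of *Mcm7*, which was lower, have the same 8 letters. *Mcm7* also holds the downstream match, and no link of matches with changes was tested. The 15 tested probes of genes with an E2F match had a median change of -0.01, with 1 higher and 2 lower calls. The 24 probes of genes with a window but no such match had a median of -0.08, with 3 lower calls. These medians were not compared by a test.

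Genes of helicase activation (7 genes, 8 probes) gave the single higher call. *Gins3*, a subunit of the GINS complex that binds the MCM ring and CDC45, had signals of 4.90, 5.08, 5.08 and 5.05 in embryos of HOM fathers. In embryos of HET fathers they were 4.72, 4.68, 4.90 and 4.82. The lowest HOM father and highest HET father signals both rounded to 4.90, and HOM father replicate 1 lay below the other 3 of its group. The change was 0.25 ± 0.07 (SE, n = 4 and 4), or 1.19-fold, with an adjusted p of 0.0360 in limma. The call was lost in 11 of 18 alternatives, among them sex as a covariate (adjusted p = 0.0539), the replicate block (0.0744) and the random block of the number that leads the sample identifier (0.0598). The change was 0.06 (adjusted p = 0.569) with median scaling and 0.37 with normexp background correction. Its partners in the same complex gave -0.08 (*Gins1*), -0.12 (*Gins2*) and -0.01 (*Gins4*), and none of these passed the test. *Cdc45* stood at 0.02 and *Mcm10*, which helps the helicase to start, at -0.12.

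The 2 probes for *Cdc7*, the kinase that triggers origin firing, were dim and differed in the sign of their change. The probe A_52_P512519 gave -0.35 ± 0.17 (SE) and an adjusted p of 0.200, with HET father replicate 4 at -2.08 and the other arrays between -3.09 and -2.66. The probe A_55_P1977484 gave 0.10 ± 0.11 (SE) and an adjusted p of 0.546. Neither passed the test.

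**Figure D4:**
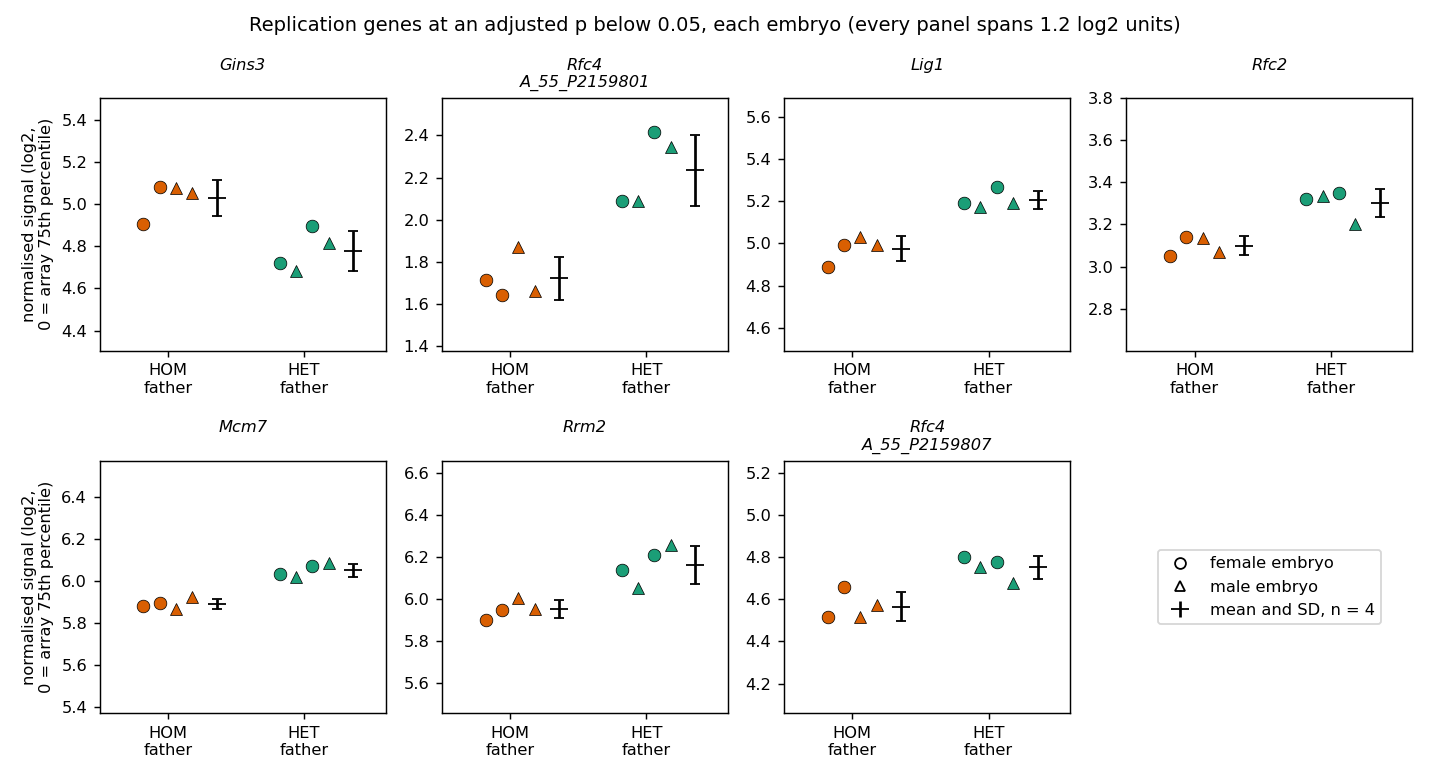
Normalised signal (log2, 0 is the array's 75th percentile) of the 7 replication probes at an adjusted p below 0.05, in each embryo of HOM fathers (orange) and HET fathers (green), with the mean and SD of 4 beside them. Each panel spans 1.2 log2 units. In every panel the groups are apart, by changes of between -0.51 (Rfc4, A_55_P2159801) and 0.25 (Gins3).

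The clamp loader held the largest called change. RFC opens the PCNA ring and closes it around primed DNA, and *Rfc2* to *Rfc5* encode its small subunits. For the *Rfc4* probe A_55_P2159801 the signals were 1.71, 1.64, 1.87 and 1.66 in embryos of HOM fathers and 2.09, 2.09, 2.42 and 2.34 in embryos of HET fathers. The groups were clearly apart. The change was -0.51 ± 0.10 (SE, n = 4 and 4), or 1.43-fold lower, with an adjusted p of 0.0089 in limma. The brighter *Rfc4* probe, A_55_P2159807, fell by 0.19 with an adjusted p of 0.0440, from 4.799, 4.75, 4.78 and 4.68 to 4.51, 4.66, 4.52 and 4.57. Both probes of the gene were thus lower, by unequal amounts. The difference between them was not tested. The call of the brighter probe was lost in 12 of 18 alternatives, with adjusted p values of 0.129 under the replicate block and 0.0737 under the random block of the identifier number, and its change was -0.38 with median scaling.

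*Rfc2* had signals of 3.05, 3.14, 3.14 and 3.07 in embryos of HOM fathers and 3.32, 3.33, 3.35 and 3.20 in embryos of HET fathers. It fell by 0.20 ± 0.05 (SE), with an adjusted p of 0.0291. The call was lost in 9 of 18 alternatives, among them quantile normalisation (adjusted p = 0.0812) and the replicate block (0.0829), and the change was -0.39 with median scaling. The other subunits gave -0.06 (*Rfc1*, the large subunit), 0.01 (*Rfc3*) and -0.10 (*Rfc5*), and none passed. *Pcna*, the clamp itself, stood at -0.03 with a 95% interval from -0.23 to 0.18. In this role 3 of 7 tested probes were lower, 2 of them for *Rfc4*, beside 8.69% of all tested probes and 15.0% of the bright ones.

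In lagging strand maturation, where FEN1 trims the flap left by each primer and DNA ligase I seals the nick, the 2 genes differed in sign. *Lig1* had signals of 4.89, 4.99, 5.03 and 4.99 in embryos of HOM fathers and 5.19, 5.17, 5.27 and 5.19 in embryos of HET fathers. The highest HOM father signal, 5.03, was below the lowest HET father signal, 5.17. It fell by 0.23 ± 0.05 (SE, n = 4 and 4), or 1.17-fold, with an adjusted p of 0.0160 in limma. Normexp background correction brought the change to -0.07 (adjusted p = 0.338), and over all 18 alternatives the adjusted p lay between 0.0048 and 0.338. The call was also lost with quantile normalisation, with no filter on dim probes and under the replicate block (adjusted p = 0.0560, 0.0946 and 0.0633), and the change was -0.42 with median scaling. *Fen1* had a fitted change of 0.09 and an adjusted p of 0.240.

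In nucleotide supply, *Rrm2*, the small and cell cycle regulated subunit of ribonucleotide reductase, was lower. Its signals were 5.90, 5.95, 6.005 and 5.95 in embryos of HOM fathers and 6.14, 6.05, 6.21 and 6.26 in embryos of HET fathers. HET father replicate 2 was nearest to the HOM group, and the groups did not overlap. It fell by 0.21 ± 0.06 (SE), with an adjusted p of 0.0369. The call was lost in 11 of 18 alternatives, among them quantile normalisation (adjusted p = 0.102) and the replicate block (0.0920), and the change was -0.40 with median scaling. The large subunit *Rrm1* had means of 4.33 and 4.35 and a change of -0.02. *Tyms*, which makes thymidylate, had a fitted change of 0.11 and an adjusted p of 0.209.

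The 3 subunits of RPA, the protein that coats single-stranded DNA, had fitted changes of -0.09 (*Rpa1*), -0.10 (*Rpa2*) and -0.09 (*Rpa3*). None passed the test, and each 95% interval included 0. Of the polymerases, *Pold1*, the catalytic subunit of polymerase delta, had groups that did not overlap and a change of -0.10 with an adjusted p of 0.192. *Pold2* stood at -0.13, *Pole2* at 0.02 and *Prim1*, the catalytic subunit of primase, at -0.03. *Pole*, the catalytic subunit of polymerase epsilon, gave -0.21 on its tested probe, with an adjusted p of 0.116. Its other probe was too dim to test, with 1 HOM father array at -3.51 and the other 7 between -5.69 and -5.004.

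*Prim2*, the regulatory subunit of primase, behaved unlike all other replication genes and was singled out after its values were seen. Its normalised signals were 1.83, -0.69, 1.84 and -0.86 in HOM father replicates 1 to 4. They were 1.89, 1.84, 1.88 and 1.86 in the HET father embryos. HOM father replicates 2 and 4, a female and a male, were thus far below the other 6 arrays, which lay between 1.83 and 1.89. Within the HOM group the highest signal was 6.53-fold above the lowest, against 1.04-fold in the HET group. Before normalisation the processed signals were 5743, 974, 5861 and 747 in the HOM group and between 4927 and 5308 in the HET group, and the probe was well above background on all 8 arrays. The comparison by father gave -1.34 ± 0.67 (SE) with a 95% interval from -2.88 to 0.20 and an adjusted p of 0.196.

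So wide a range within a group was uncommon. Of all tested probes 504 (1.70%) had a range within 1 group of at least that size, and 17 of these had a mean signal above 0. The widest range among the other tested replication probes was 0.80, for *Cdc7*. In the RefSeq order of coding genes (GRCm38.p6), the neighbours with tested probes had narrower ranges. These were, over all 8 arrays, 0.41 for *Gm9839* on 1 side, and 0.30 and 0.33 for the *Rab23* probes, 0.28 for *Bag2* and 0.27 for *Zfp451* on the other. *Prim1*, which encodes the other primase subunit, had signals between 4.08 and 4.26 on all arrays. *Prim2* rests on 1 probe, and no second probe was there to compare.

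**Figure D5:**
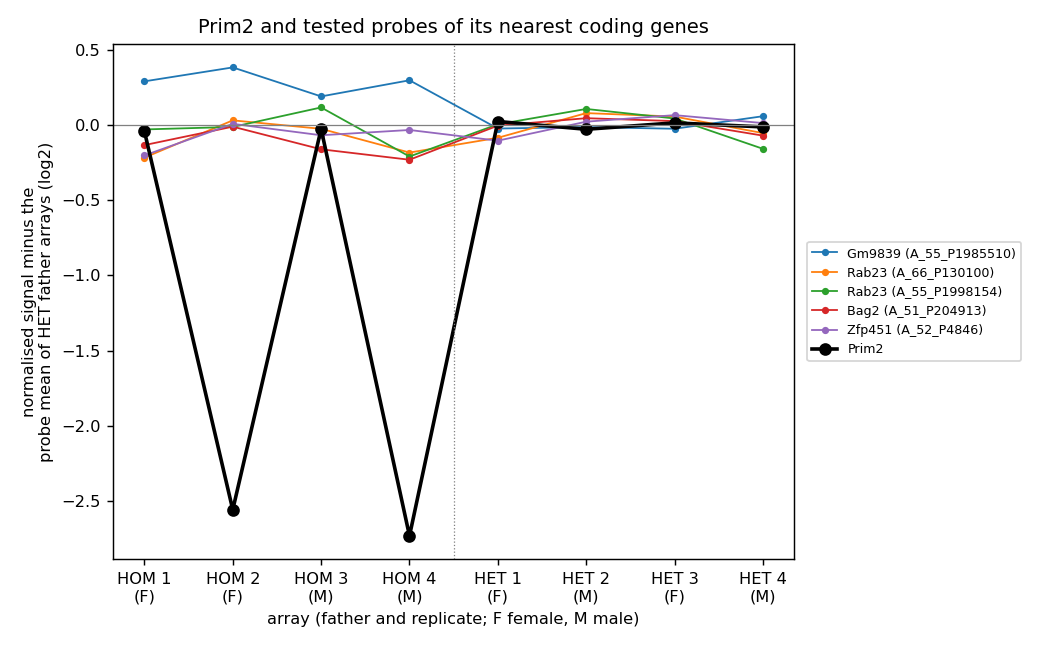
Normalised signal of Prim2 (black) and of the tested probes of its nearest coding genes, each minus its mean over the HET father arrays (log2), on every array (father, replicate and sex). Prim2 lies far below its HET father mean in HOM father replicates 2 and 4 and near it elsewhere, and the neighbours stay within a range of 0.41.

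Sex made no called difference to the replication genes. In limma with father as a covariate, 0 of 47 probes had an adjusted p below 0.05 for female against male, beside 0.121% of all tested probes, and the lowest adjusted p was 0.887. At an unadjusted p below 0.05 there were 2, beside 5.22% of all tested probes. These were *Pcna*, with a female minus male difference of 0.20 ± 0.06 (SE), and *Mcm2*, with 0.11 ± 0.04. *Pcna* signals were 6.65, 6.51, 6.55 and 6.64 in the 4 females and 6.35, 6.40, 6.34 and 6.48 in the 4 males. Females were above males in both father groups for this probe. *Mcm2* signals were 4.15, 4.19, 4.23 and 4.21 in females and 4.06, 4.06, 4.12 and 4.10 in males. The next lowest p was that of the *Cdc7* probe A_52_P512519, with -0.32 ± 0.14. Its signals were -2.99, -3.09, -2.85 and -2.87 in females and -2.96, -2.82, -2.66 and -2.08 in males, and the sexes overlapped.

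The effect of the father did not differ by sex for any replication probe at an adjusted p below 0.05, beside 0.0639% of all tested probes for the interaction in limma. The lowest adjusted p was 0.904, for *Pole*, and 1 probe had an unadjusted p below 0.05, beside 4.52% of all tested probes. *Pole* signals were 3.89 and 3.86 in HOM father females and 3.58 and 3.71 in HOM father males, against 3.86 and 3.94 in HET father females and 4.08 and 4.02 in HET father males. The father effect in females minus that in males was 0.38 ± 0.11 (SE). *Gins4* and *Rrm1* followed with -0.15 and 0.13 and unadjusted p values in limma of 0.214 and 0.229. *Gins4* signals were 3.16, 3.07, 3.18 and 3.17 in HOM father replicates 1 to 4 and 3.26, 3.07, 3.15 and 3.14 in HET father replicates 1 to 4. *Rrm1* signals were 4.33, 4.40, 4.31 and 4.27 against 4.33, 4.40, 4.31 and 4.34, and for both genes the father groups overlapped.

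Beyond these genes, 74 further replication genes (100 probes, 98 tested) gave 11 higher calls (11.2%) and as many lower ones with an adjusted p under 0.05, and 0 by the study's limits in limma, with 42 at an unadjusted p below 0.05. Over all tested probes the shares were 12.3% higher, 8.69% lower and 34.8% at an unadjusted p below 0.05. Their median change was -0.05. Other fork and polymerase genes gave 4 higher and 5 lower calls of 41 tested probes, chromatin genes that act behind the fork 1 and 4 of 14, nucleotide supply genes 1 and 0 of 12, and regulators of the G1 to S transition 5 and 2 of 31. These counts are small and are to be read against the same shares of all tested probes. The lowest p among the higher calls was that of 1 *Ssrp1* probe, a subunit of the histone chaperone FACT, at 0.77 ± 0.09 (SE, adjusted p = 0.0010 in limma). Its signals were 1.48, 1.40, 1.54 and 1.68 in embryos of HOM fathers and 0.88, 0.71, 0.60 and 0.84 in embryos of HET fathers. The second and brighter *Ssrp1* probe gave -0.06, so that the 2 probes of this gene disagreed.

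*E2f4*, an E2F factor that mostly represses, was higher by 0.47 ± 0.06 (SE, adjusted p = 0.0021 in limma). Its signals were 0.75, 0.66, 0.58 and 0.63 against 0.17, 0.07, 0.19 and 0.29. *Timeless*, a fork protection factor, was higher on 1 probe (0.41, adjusted p = 0.0051) and not on the other (-0.11, adjusted p = 0.202). The lower calls of lowest p were 2 probes of *Rnaseh2a*, the catalytic subunit of the nuclease that removes ribonucleotides from DNA, at -0.34 each (adjusted p = 0.0097 and 0.0116). Another probe of that gene also fell by 0.30, and the remaining probe gave 0.07. *Cdk4*, the G1 cyclin-dependent kinase, followed with -0.27 (adjusted p = 0.0119), and its other probes gave -0.21 and -0.10. The cyclin *Ccne2* was also among the higher calls and is named after its value was seen. The probe stood well above background in all 4 embryos of HOM fathers and in 2 of the 4 of HET fathers. It thus passed the filter only through the group where it was high, and its p-value is left out. Its signals were -3.40, -3.76, -3.88 and -3.08 in embryos of HOM fathers against -5.21, -6.37, -5.82 and -4.56.

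RNA of a whole embryo is a mixture, and fewer cells that replicate cannot be told apart from less RNA in each. The summed linear signal of the primitive red cell markers lay between 818 and 1097 in HOM father embryos and between 1042 and 1082 in HET father embryos, in units of the array's 75th percentile. The yolk sac endoderm markers gave 552 to 695 against 638 to 664, and those of the embryo proper 36.8 to 38.4 against 37.4 to 42.1. The trophoblast markers gave 15.6 to 28.3 against 24.98 to 46.6, with an adjusted p under 0.05 in limma for 1 lower probe. A dim *Psg17* probe was higher, and was well above background in 4 HOM father embryos and 2 HET father embryos. It passed the filter only through the group where it was high, and its p-value is left out. The decidua markers gave 8.68 to 29.9 against 6.83 to 11.7. The 1 higher call among them was a dim *Htra3* probe, at -2.63 to -2.42 against -3.09 to -2.85. The *Cryab* probes had changes of 0.01 and -0.05. Signals of the decidua marker *Prl8a2* were 0.29, 4.14, 4.45 and 1.30 in HOM father embryos and 1.85, 1.88, -1.42 and -3.99 in HET father embryos. The trophoblast *Prl3d1* probe A_55_P1987331 lay between -1.05 and 1.97 against -3.16 and 0.44. The tested probes of *Gcm1*, also a trophoblast marker, went the other way, with changes of -1.07, -0.99 and -0.35. The first of these, A_55_P2114697, was the lower call, at 2.91 to 3.25 in HOM father embryos against 3.55 to 4.61. These marker genes were named after their values were seen, and neither *Prl8a2* nor *Prl3d1* was called. Fitted changes were above 0 for 5 decidua and 5 trophoblast probes, and below 0 for 2 and 4. The part of these tissues in the differences above was not tested.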

How the data were processed

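Gene expression in 8 individual E8.5 mouse embryos was measured on Agilent SurePrint G3 Mouse GE 8x60K arrays. Per the labels, 0.2 µg of DNase-treated RNA was amplified to Cy3-labelled cRNA. The deposited scanner files hold the linear intensity of each spot. The authors made these values with Feature Extraction 11.0.1.1, which subtracted background and removed spatial trends, and no normalisation between arrays was applied. A series table from the authors repeated these intensity values in rounded form (largest difference 0.497%). Its scale is linear with no centring. The deposited flags for background and outliers, which are other values of 0 or 1, served as filters.

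Outlier spots were left out, signals were converted to log2 and shifted by the array's 75th percentile, and spots of 1 probe were averaged, with no averaging over different probes of a gene. Testing required at least 4 of 8 arrays on which a probe was well above background and not below the 20th percentile. limma 3.58.1 (R 4.3.3, lmFit and eBayes, two-sided) was fitted over all tested probes with Benjamini-Hochberg adjustment, by father, by sex with father as a covariate, and for their interaction. The fit was tested on simulated data in which 200 of 29692 probes were changed. At an adjusted p below 0.05 it recovered 0% of log2 changes of 0.15 and 4% of those of 0.25. It recovered 34% of changes of 0.5 and 74% of changes of 1. In the real data 6243 probes were called, so the simulated setting was not the same. Precision is limited by the number of arrays.

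Accessions were matched to a RefSeq gene table (GRCm38.p6), which named 27235 probes (48.9%). *Skp2* and *Prl2c2* had no matched probe. Promoter sequences are from RefSeq, GRCm38.p6. The members, gene lists and motifs were chosen with earlier results of these data known. All member probes are accounted for by role. Values on all arrays are given for member probes called by the study's limits, for up to 6 in each direction with an adjusted p under 0.05, for disagreeing called probes of 1 gene, and for up to 3 with the lowest p for sex and interaction. Of the other replication genes the 3 higher and 3 lower probes of lowest p are named. Exceptions are stated. The alternatives were quantile and median scaling, normexp (offset 50), the authors' table, 2 other filters, sex as a covariate, an intensity trend, the replicate number as a block, the leading number of the sample identifier as a random block, 1 probe per gene, and leaving out each array.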

Additional observations from a re-analysis of the deposited data

Results flagged for a closer look

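In 6 of the 110 sets of 4 arrays examined (each gene or list in each father group), 1 array stood apart from the other 3 by Dixon's criterion at the 95% level. Chance gives about 1 in 20, which is 5.50 of 110 sets. The *Cdc6* probe A_66_P131979 had 1.83 in HOM father replicate 2, with the others between 1.53 and 1.58. *Gins2* had 2.81 in HET father replicate 3, with the others between 2.67 and 2.68. *Gins3* had 4.90 in HOM father replicate 1, with the others between 5.05 and 5.08. *Gins4* had 3.07 in HOM father replicate 2, with the others between 3.16 and 3.18. *Pold2* had 1.61 in HOM father replicate 1, with the others between 1.46 and 1.47. The dim *Pole* probe A_55_P2455460 had -3.51 in HOM father replicate 3, with the others between -5.22 and -5.004. The pattern of *Prim2*, with 2 of 4 HOM father arrays low, is of a kind this criterion cannot find.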

How the results depend on the processing

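No replication probe was called by the study's limits, by sex or by interaction under any of the alternatives run. The changes of the 7 called probes and of *Prim2*, the single probes followed through the alternatives, did not turn their direction. At an adjusted p below 0.05 (limma), 1 higher and 6 lower replication probes became 2 and 1 with quantile normalisation, 0 and 25 with median scaling, 0 and 1 with no filter on dim probes, and 0 and 4 with sex as a covariate. The random block of the identifier number gave 0 higher and 5 lower. HOM father replicates 3 and 4 share that number, as do HET father replicates 1 and 2, and the labels do not give its meaning. The fitted correlation within a number was 0.30, and the calls over all probes were 4862. Leaving out 1 array gave 0 to 1 higher and 2 to 5 lower. The replicate block gave 0 higher and 1 lower. Same-numbered arrays correlated at -0.13 to 0.19 in their deviations from the group means. In this check 2 of 4 HOM father arrays and 1 of 4 HET father arrays correlated best with their own number. With 4 arrays in a group, it cannot show whether same-numbered embryos were related. The block reduced the calls over all probes from 6243 to 3487, and the calls with no filter were 3114 of 55670 probes. Median scaling gave 12689 calls, 10351 of them lower. The median change of the replication probes was -0.08, -0.0149 with quantile normalisation and -0.27 with median scaling, and between -0.08 and -0.06 without 1 array. Without *Prim2* it was -0.07. For the other replication genes, 11 higher and 11 lower became 13 and 7 with quantile normalisation, 3 and 46 with median scaling, 4 and 1 with no filter, 14 and 18 with an intensity trend, 6 and 4 with the replicate block, 6 and 9 with the random block, and 5 to 9 and 5 to 14 without 1 array. The cause of these changes was not tested. Of the 18 alternatives, *Rfc4* (A_55_P2159801) kept its call in 18, *Lig1* in 14, *Rfc2* in 9, *Mcm7* in 8, *Gins3* and *Rrm2* in 7 each and the second *Rfc4* probe in 6. Normexp was run on the median spot signals, a choice made after the files were seen, as was leaving out *Prim2*. The planned version on mean spot signals and the planned matching by gene name were not run.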
